A study of Mus musculus with 16 samples.

Results

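The 10 genes described here encode feedback inhibitors of mitogen-activated protein kinase (MAPK) signaling, measured in the dorsal hippocampus: the dual-specificity phosphatase genes Dusp1, Dusp4, Dusp5, Dusp6 and Dusp14, the Sprouty genes Spry1, Spry2 and Spry4, and the Spred genes Spred1 and Spred2. They were chosen by name, with earlier results of these data known. The Ensembl identifiers of all 10 were found among the 35328 genes of the count table through the GENCODE M21 annotation. All 10 were among the 17830 genes that passed the count filter. All are protein-coding, and in mm10 the phosphatase genes span chr17:26505590-26562128 (Dusp1, minus strand), chr8:34807297-34819894 (Dusp4, plus), chr19:53529109-53542431 (Dusp5, plus), chr10:99263231-99267489 (Dusp6, plus) and chr11:84048041-84069261 (Dusp14, minus). The Sprouty genes span chr3:37639947-37644598 (Spry1, plus), chr14:105891947-105896819 (Spry2, minus) and chr18:38586247-38601415 (Spry4, minus), and the Spred genes chr2:117121374-117182279 (Spred1, plus) and chr11:19924375-20024026 (Spred2, plus).

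RNA-Seq was performed on 16 C57Bl6/J mice in 4 groups of 4, aged 8 to 9 weeks when treatment began. Home cage mice were resting and drank water (HC_water) or caffeine at 0.3 g/L for 2 weeks (HC_Caffeine). Learning mice drank the same 2 solutions (MWM_water and MWM_Caffeine), were trained for 3 days in the Morris water maze (MWM), a spatial memory task, and were taken 1 hour after the last session. Before that, the learning mice had been habituated to the pool on 2 days. No group swam without being trained, so learning was not tested apart from swimming, handling or contact with the water. In what follows, learning therefore names the whole comparison of trained with home cage mice. No mouse carried an engineered allele. The comparisons ask whether training changed the RNA of these inhibitors and whether caffeine changed it at rest, after training, or in the size of the response to training. Mice are named by group and by the number in their label. The p-values set each difference between groups against the spread between these mice.

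In the MAPK cascade, Ras activates Raf kinases, which activate MEK and then the kinase ERK. Active ERK enters the nucleus and induces early genes, some of which encode proteins that switch the cascade off again. Dual-specificity phosphatases remove the activating phosphates from ERK, JNK or p38, whereas Sprouty and Spred proteins act upstream, on the path from receptor tyrosine kinases through Ras to Raf. In hippocampal neurons ERK signaling is known to be needed for lasting forms of synaptic plasticity and memory.

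Upstream sequence was available here for 8 of the 10 genes, all but Dusp4 and Spry4, in the RefSeq set for GRCm38.p6, which gives 250 bases before and 50 bases after each gene start. Dusp1 and Dusp5 are shown because they held the longer motifs among those searched. The sequences run 5′ to 3′ from base -250 to base -51 relative to the start, with the motif letters in capitals. The Dusp1 sequence lies at chr17:26508523-26508722 on the minus strand and that of Dusp5 at chr19:53528895-53529094 on the plus strand. Bases are counted from the RefSeq start. For both genes the RefSeq and GENCODE starts differ. The Dusp1 sequence lies inside the GENCODE span given above, which starts on the minus strand at base 26562128. The Dusp5 sequence lies before its GENCODE span, which starts at base 53529109, ahead of the RefSeq start.
Dusp1: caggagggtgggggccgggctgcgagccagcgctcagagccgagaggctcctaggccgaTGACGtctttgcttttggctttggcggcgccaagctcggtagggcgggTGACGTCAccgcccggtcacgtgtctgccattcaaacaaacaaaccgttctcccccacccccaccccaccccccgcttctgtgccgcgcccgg
Dusp5: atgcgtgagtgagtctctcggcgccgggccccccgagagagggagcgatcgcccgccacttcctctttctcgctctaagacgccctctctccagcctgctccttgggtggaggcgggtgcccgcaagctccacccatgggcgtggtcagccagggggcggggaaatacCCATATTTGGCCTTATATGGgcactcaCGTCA

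The capitals mark cAMP response element (CRE) letters and, in Dusp5, the serum response element known as the CArG box. On both strands, the full CRE, TGACGTCA, was found in Dusp1 at base -143, and 1.79% of all 32851 promoters of this length held it. The shorter CRE core TGACG, which is also part of the full CRE, was found in Dusp1, Dusp5 and Spred2 and in 20.8% of all promoters. Dusp5 held 2 adjacent CArG boxes, at bases -82 and -72, and 1.63% of all promoters held at least 1. The letters of AP-1 (TGANTCA), EGR (GCGNGGGCG) and ETS (CCGGAAGT) motifs were in none of the 8 windows and in 7.81%, 5.55% and 3.89% of all promoters. These are matches of letters only, and no factor binding was measured here.

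Library totals ran from 23078094 to 49949281 gene-assigned reads, and the 10 genes had between 184 and 8608 reads in each library. Levels are given as CPM, the read count scaled to library size by edgeR's TMM method. The libraries of 2 mice stood apart. HC_Caffeine 17 had the lowest score on the first principal component and the highest share of mitochondrial reads (4.49%), and MWM_water 24 was the learning mouse nearest to the home cage mice on that component and had a summed oligodendrocyte marker level of 11141 CPM, against at most 8315 CPM in any other mouse. Results that change without either mouse are given beside it. Excitatory neuron markers were abundant in every mouse, with 5634 to 7084 CPM summed over 5 genes, and 5 dorsal hippocampal field markers summed to 447 to 649 CPM. In bulk tissue, fewer cells of a type and less RNA per cell cannot be told apart.

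Per kilobase of exon, the levels of the 10 genes over 16 mice ran from 21.7 ± 2.93 CPM (SD, n = 16) for Spred1 to 2.75 ± 0.522 for Dusp1, in means that pool the 4 groups. Dusp6 (18.4), Spred2 (17.7), Spry2 (16.3) and Dusp14 (14.1) followed Spred1, then Dusp5 (9.82) and Dusp4 (9.05), and Spry4 (3.37) and Spry1 (2.93) stood next to Dusp1, although Spry1 was below Dusp1 in both learning groups (2.93 against 3.06 and 2.92 against 3.06). Of the 9 pairs of neighbours in this order, Dusp4 and Spry4 were the pair whose ranges over the mice did not overlap, with Dusp4 the higher in 16 of 16 mice. The lengths are those of all merged GENCODE exons of a gene, 3311 bases in 6 blocks for Dusp1, so close places in the order depend on that annotation. Over all 16 mice, the learning change included, the coefficient of variation ran from 7.59% for Dusp14 to 35.5% for Dusp5, whereas within groups it was 3.01% to 9.50% for Dusp14 and 12.1% to 37.2% for Dusp5.

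**Figure D1:**
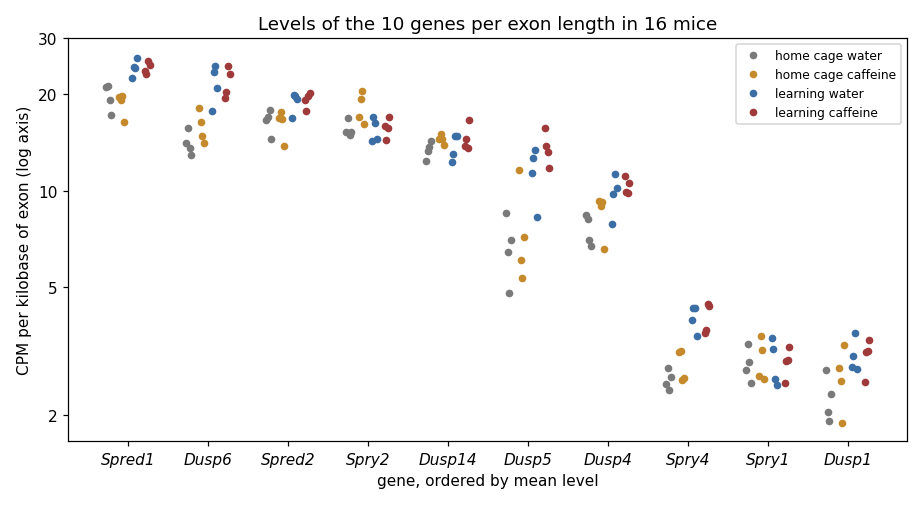
CPM per kilobase of exon, on a log axis, for each gene in each of the 16 mice, with colors for the 4 groups and genes ordered by mean level. Spred1 had the highest mean (21.7) and Dusp1 the lowest (2.75), with a step between Dusp4 (9.05) and Spry4 (3.37).

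Averaged over water and caffeine, 7 of the 10 genes rose with learning and none fell, in edgeR's quasi-likelihood test with Benjamini-Hochberg adjustment at an adjusted p under 0.1. Over all genes tested, 14.5% were called in this comparison, 7.81% higher and 6.71% lower. The 7 were 4 phosphatase genes (Dusp1, Dusp4, Dusp5, Dusp6), 1 Sprouty gene (Spry4) and both Spred genes. The median log2 fold change of the 10 genes was 0.33, against -0.01 over all genes. Dusp14, Spry1 and Spry2 did not pass the test.

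**Figure D2:**
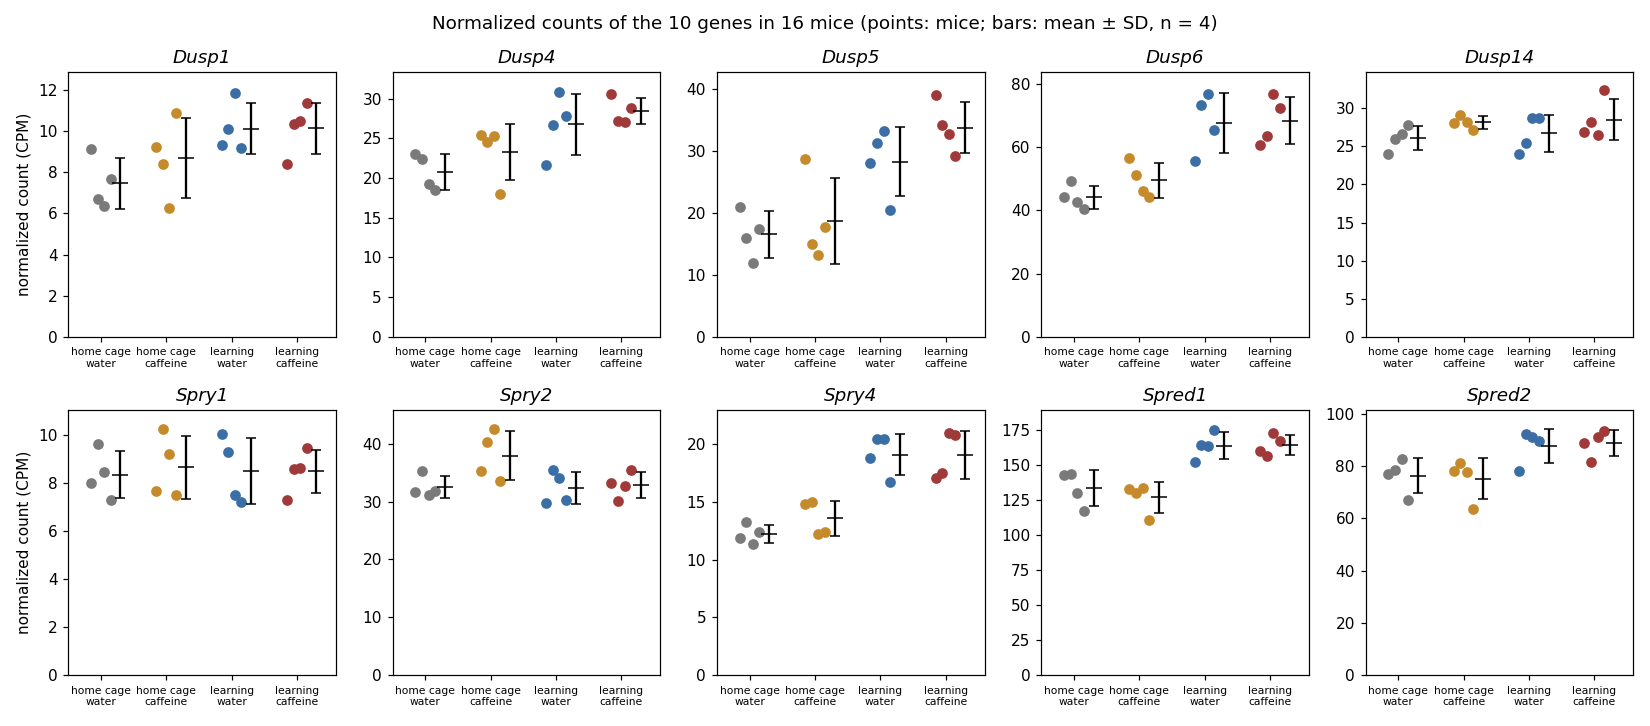
CPM of each of the 10 genes in each mouse (points), with the mean and SD of each group of 4 (bars); every vertical axis starts at 0. All 8 learning mice were above all 8 home cage mice for Spry4 and Spred1, whereas the 4 groups overlapped for Dusp14, Spry1 and Spry2.

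Dusp6 encodes a cytoplasmic phosphatase that acts on ERK with little activity on JNK or p38. The HC_water mice had 40.4, 42.6, 44.2 and 49.2 CPM and the HC_Caffeine mice 44.2, 46.2, 51.3 and 56.6 CPM. The MWM_water mice had 55.5, 65.4, 73.4 and 76.9 CPM and the MWM_Caffeine mice 60.8, 63.5, 72.6 and 76.8 CPM. Under each treatment the learning mice were all above the home cage mice, and over both treatments the highest home cage mouse, HC_Caffeine 2, passed the lowest learning mouse, MWM_water 24. Dusp6 rose 1.46-fold (95% interval 1.31 to 1.62, adjusted p = 3.70e-04), which placed it 40th of 17830 genes by p. The rise was called under water (1.54-fold, adjusted p = 0.0109) and under caffeine (1.38-fold, adjusted p = 0.0258).

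Dusp5 encodes a nuclear phosphatase specific for ERK and had the largest fold change of the 10. The home cage values were 11.9, 15.9, 17.3 and 20.999 CPM with water and 13.2, 15.04, 17.7 and 28.7 CPM with caffeine. After learning they were 20.5, 28.02, 31.3 and 33.2 CPM with water and 29.1, 32.7, 34.1 and 38.9 CPM with caffeine. The caffeine groups did not overlap, whereas with water HC_water 6 was just above MWM_water 38. Dusp5 rose 1.75-fold in the average (1.42 to 2.17, adjusted p = 3.12e-03) and 1.80-fold under caffeine (adjusted p = 0.0400). Under water the change was 1.71-fold but missed the threshold (adjusted p = 0.121). Without HC_Caffeine 17 the caffeine call was lost (adjusted p = 0.102), whereas the water change passed without HC_Caffeine 2 (adjusted p = 0.0422) or 14 (0.0998), HC_water 6 (0.0857) or MWM_water 38 (0.0958). An antisense gene covers 547 exon bases of Dusp5, and whether the counting used strand is not stated, so these counts may include antisense reads.

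Dusp4 encodes another inducible nuclear phosphatase, which acts on ERK and JNK. Its home cage values were 18.4, 19.3, 22.4 and 23.1 CPM with water and 17.97, 24.5, 25.2 and 25.4 CPM with caffeine. Its learning values were 21.6, 26.7, 27.8 and 30.8 CPM with water and 27.03, 27.2, 28.9 and 30.5 CPM with caffeine. The lowest values in HC_Caffeine and MWM_water came from HC_Caffeine 17 and MWM_water 24. Dusp4 rose 1.25-fold in the average (1.11 to 1.41, adjusted p = 0.0215). It was not called under either treatment alone (adjusted p = 0.194 and 0.182), but passed under water when MWM_water 24 (adjusted p = 0.0793) or HC_Caffeine 17 (adjusted p = 0.0851) was left out.

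Dusp1, an immediate early gene whose phosphatase acts on p38, JNK and ERK, was among the 3 genes of low level per exon length. Its values were 6.34, 6.72, 7.68 and 9.13 CPM in HC_water, 6.24, 8.401, 9.24 and 10.9 CPM in HC_Caffeine, 9.19, 9.34, 10.1 and 11.9 CPM in MWM_water and 8.396, 10.3, 10.5 and 11.3 CPM in MWM_Caffeine. The water groups did not overlap, and the caffeine groups did. Dusp1 rose 1.26-fold in the average (1.08 to 1.47, adjusted p = 0.0632). The call was lost without MWM_water 36 (adjusted p = 0.119), MWM_Caffeine 30 (adjusted p = 0.104) or MWM_Caffeine 40 (adjusted p = 0.111).

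Dusp14, an atypical dual-specificity phosphatase that lacks the kinase-binding domain of the other 4, ranged from 23.97 to 32.4 CPM over all mice. Its learning change was 1.02-fold (0.942 to 1.10), and the groups overlapped throughout.

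Spry4, a Sprouty gene induced by ERK signaling in many tissues, had the smallest p of the 10, placing 21st of 17830 genes. The home cage mice had 11.4, 11.9, 12.4 and 13.3 CPM with water and 12.2, 12.4, 14.9 and 14.99 CPM with caffeine. The learning mice had 16.7, 18.8, 20.5 and 20.5 CPM with water and 17.1, 17.5, 20.8 and 20.99 CPM with caffeine. All 8 learning mice were above all 8 home cage mice. The rise was 1.48-fold in the average (1.34 to 1.64, adjusted p = 1.30e-04), 1.56-fold under water (adjusted p = 0.00427) and 1.41-fold under caffeine (adjusted p = 0.0126).

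Spry2 and Spry1, which encode the other Sprouty proteins measured, did not pass the test. Spry2 had a log2 fold change of -0.11 in the average (95% interval -0.23 to 0.01, adjusted p = 0.249). Under caffeine its value was -0.21 (-0.38 to -0.04, adjusted p = 0.174), and it passed the threshold there as lower when HC_Caffeine 17 and MWM_water 24 were both left out (adjusted p = 0.0998). Spry1 ranged from 7.20 to 10.3 CPM over all mice and changed 1.003-fold (0.878 to 1.15). A gene on the opposite strand shares 710 exon bases with Spry1, so its counts are also uncertain.

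The Spred genes encode membrane-associated inhibitors. Spred1 binds neurofibromin, which switches Ras off, and loss of SPRED1 in people causes Legius syndrome, in which learning difficulties can occur. Spred1 had 117, 130.4, 143 and 144 CPM in HC_water, 111, 130.2, 133 and 134 CPM in HC_Caffeine, 152, 164, 165 and 175 CPM in MWM_water and 157, 161, 167 and 173 CPM in MWM_Caffeine. As for Spry4, no home cage mouse reached any learning mouse. Spred1 rose 1.26-fold in the average (1.17 to 1.36, adjusted p = 9.77e-04) and 1.29-fold under caffeine (adjusted p = 0.0124). The water change of 1.23-fold was close to the threshold (adjusted p = 0.0854). It was lost in 7 of 16 fits that left out 1 mouse: without HC_water 11 (0.186) or 20 (0.256), HC_Caffeine 9 (0.104), MWM_water 33 (0.193), 36 (0.213) or 38 (0.190), or MWM_Caffeine 30 (0.106), each an adjusted p.

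Spred2 had 67.0, 76.9, 78.6 and 82.7 CPM in HC_water, 63.5, 77.6, 78.1 and 81.3 CPM in HC_Caffeine, 78.0, 89.5, 90.9 and 92.1 CPM in MWM_water and 81.7, 88.7, 91.3 and 93.6 CPM in MWM_Caffeine. The caffeine groups did not overlap, and with water MWM_water 24 lay within the range of the home cage mice. Its rise was the smallest of the 7, at 1.17-fold (1.07 to 1.27, adjusted p = 0.0249). It was not called under water (adjusted p = 0.328) or under caffeine (adjusted p = 0.116), although the caffeine value passed without HC_water 20 (0.0914), MWM_water 24 (0.0791) or MWM_Caffeine 27 (0.0881) and the water value passed with HC_Caffeine 17 and MWM_water 24 both left out (0.0689), each an adjusted p.

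Within each treatment, 3 of the 10 genes were called with water (Spry4, Dusp6 and Spred1), where 0.97% of all genes were called, 0.639% higher and 0.331% lower. With caffeine 4 were called (the same 3 and Dusp5), where 5.28% of all genes were called, 3.16% higher and 2.13% lower. Learning and home cage groups did not overlap for 4 genes with water (Dusp1, Dusp6, Spry4 and Spred1) and 6 with caffeine (Dusp4, Dusp5, Dusp6, Spry4, Spred1 and Spred2), all with learning higher, against 3.87% and 5.64% of all genes. None lay wholly lower after learning, against 3.12% of all genes with water and 5.24% with caffeine. With both treatments joined, 2 of the 10 lay wholly higher, against 0.953% of all genes, and none wholly lower, against 0.365%.

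**Figure D3:**
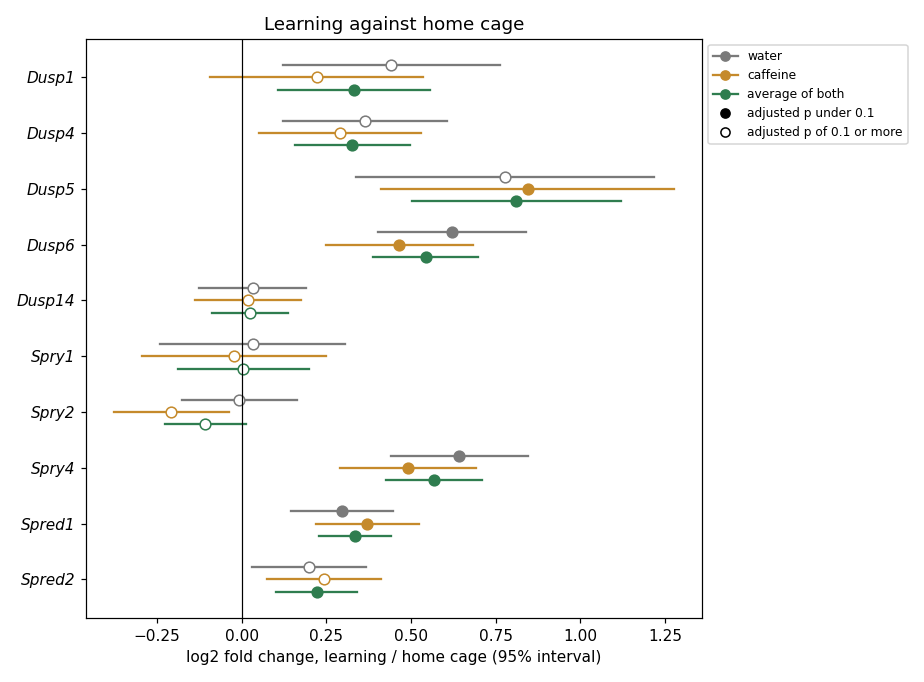
Log2 fold change of learning over home cage for each gene, with 95% intervals, under water, under caffeine and averaged; filled points passed an adjusted p under 0.1. The average was called for 7 genes, with Dusp5 the largest at 0.81, while the averages of Dusp14, Spry1 and Spry2 had intervals that included 0.

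Choroid plexus markers had their highest median sum in HC_water (1013 CPM), against 238 CPM in HC_Caffeine, 300 CPM in MWM_water and 157 CPM in MWM_Caffeine. Their summed level was 295 to 2308 CPM in HC_water against 109 to 488 CPM in the other 3 groups. All 5 were called lower in the learning average, 3 of 5 under water and 0 of 5 under caffeine. Of 5 markers each, 2 were also lower in the learning average for microglia (Cx3cr1 at -0.19 and C1qa at -0.20 on the log2 scale). The same held for 1 each for astrocytes (Gfap, -0.25), endothelial cells (Cldn5, -0.34), dorsal hippocampal fields (Wfs1, -0.32) and thalamus (Plekhg1, -0.24). The excitatory neuron, inhibitory neuron, oligodendrocyte and oligodendrocyte precursor lists had no call in that average, and no marker of any list was higher. The part of these cell types in the responses of the 10 genes was not tested.

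Caffeine against water gave no call among the 10 genes, at rest or after learning, and 0.0% of all genes were called in either comparison. Without HC_water 6, 33 genes were called at rest, none of them among the 10. At an unadjusted p under 0.05 there were 636 genes at rest and 700 after learning, among them 1 and 0 of the 10. DESeq2 called 19 and 6 genes, none of them among the 10. At rest 8 of 10 values were above 0, against 48.7% of all genes. The median log2 fold change of the 10 was 0.16, against -0.003 over all genes, with a range from -0.07 (Spred1) to 0.22 (Dusp1). After learning 8 of 10 values were also above 0, against 48.1% of all genes. The median was then 0.02, and the range ran from -0.01 (Spry1) to 0.25 (Dusp5).

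The gene with the unadjusted p under 0.05 was Spry2 at rest. It had 31.2, 31.8, 31.8 and 35.3 CPM in HC_water and 33.6, 35.3, 40.4 and 42.6 CPM in HC_Caffeine. The difference was 1.17-fold (1.04 to 1.31), with an adjusted p of 0.997 in edgeR's quasi-likelihood test. After learning the 2 groups had means of 32.4 ± 2.79 and 32.9 ± 2.23 CPM (SD, n = 4). Of the 4 HC_Caffeine mice, 3 were above every HC_water mouse for Spry2, Dusp14 and Dusp4, and the groups overlapped for all 10 genes. Over all genes, 0.981% lay wholly higher and 1.0% wholly lower with caffeine at rest, and 1.25% and 1.35% after learning.

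**Figure D4:**
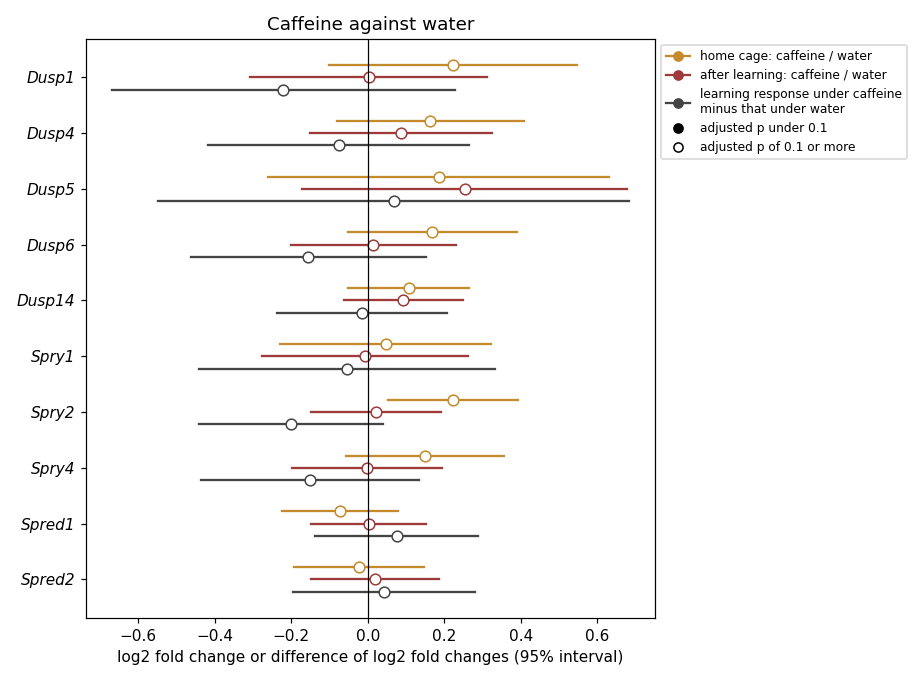
Log2 fold change of caffeine over water at rest and after learning, and the learning response under caffeine minus that under water, for each gene with 95% intervals. No point was called; the interval for Spry2 at rest (0.05 to 0.39) is the one that lies above 0.

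The difference between the learning responses was tested directly and called for 0 of the 10 genes and 0.0% of all genes; 648 genes and none of the 10 had an unadjusted p under 0.05, and DESeq2 called 6 genes, none of the 10. The response under caffeine minus that under water was -0.15 on the log2 scale for Spry4 (95% interval -0.44 to 0.13), -0.15 for Dusp6 (-0.46 to 0.15), 0.08 for Spred1 (-0.14 to 0.29) and 0.07 for Dusp5 (-0.55 to 0.68). For Dusp1 it was -0.22 (-0.67 to 0.23), for Dusp4 -0.08 (-0.42 to 0.26), for Spred2 0.04 (-0.20 to 0.28) and for Spry2 -0.20 (-0.44 to 0.04). All 8 of these intervals include 0.

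Other genes of the pathway were counted for the same learning average, in which 7.81% of all genes were called higher and 6.71% lower. Of 8 tested further MAPK phosphatase and Sprouty family genes, none rose and 1 fell, a count near those shares, with a median log2 fold change of -0.07. That gene was Dusp16, whose phosphatase acts on JNK and p38, at -0.22 (adjusted p = 0.0376). Under caffeine Dusp16 fell by 0.43 on the log2 scale (adjusted p = 0.0154), from 16.1 ± 1.30 to 11.9 ± 0.544 CPM (SD, n = 4). Dusp2, a nuclear phosphatase gene, fell by 1.05 (adjusted p = 0.0589), from 0.987 ± 0.277 to 0.470 ± 0.0827 CPM. Its level was low, at most 1.36 CPM in any mouse, and it was not called in the average (adjusted p = 0.107). Under water the changes were -0.005 for Dusp16 (13.5 CPM in both groups) and -0.03 for Dusp2 (0.687 to 0.671 CPM), without a call.

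Of the 12 genes of the ERK cascade core, 2 rose: Ksr1, a scaffold of the cascade (0.24, adjusted p = 0.0111), and Braf, a Raf kinase (0.11, adjusted p = 0.0884). Of 10 tested JNK and p38 pathway kinase genes, Map2k4 (0.11) and Mapk14 (0.09) rose, and of 16 receptor and adaptor genes, Fgfr1 (0.20) and Sos1 (0.16) did. None fell, and these counts of 2 stand against the 7.81% called higher over all genes. The median over each of these 3 lists lay between 0.02 and 0.04.

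Among 14 genes of Ras GTPase-activating proteins and other inhibitors, 4 rose and none fell, against 7.81% and 6.71% of all genes. Errfi1, an inhibitor of the EGF receptor, changed by 0.55 (adjusted p = 1.33e-04), the ubiquitin ligase genes Cbl and Cblb by 0.33 and 0.27, and Rasal2, a Ras GTPase-activating protein gene, by 0.28. Of 7 kinase genes downstream of ERK, Mknk2, Rps6ka2 and Rps6ka3 rose, by 0.22, 0.18 and 0.19, and none fell, against the same shares.

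Of 14 tested ERK-responsive transcription factor genes, 8 rose and none fell, again against 7.81% and 6.71% of all genes. The 4 with the smallest p were Egr2 (3.45), Egr1 (1.16), Fos (1.98) and Junb (0.74), all on the log2 scale, and the list's median was 0.22. Egr2 went from 0.444 ± 0.217 and 0.715 ± 0.0966 CPM in the home cage groups to 5.59 ± 1.27 and 7.01 ± 1.78 CPM after learning (SD, n = 4, water then caffeine). No gene of these 7 lists was called for caffeine against water or for the difference between the learning responses.

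**Figure D5:**
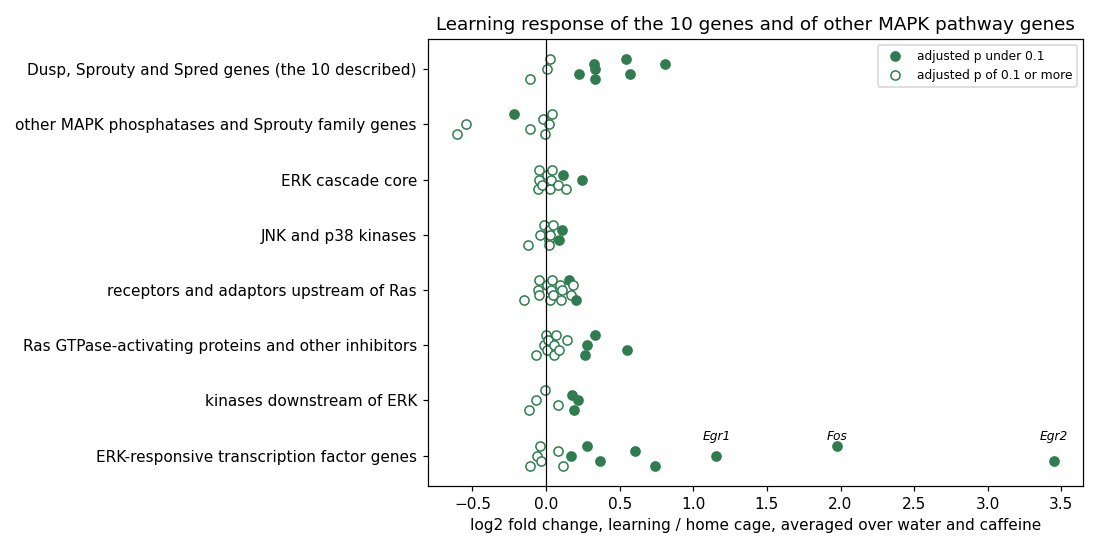
Log2 fold change of learning over home cage, averaged over water and caffeine, for the 10 genes and for each tested gene of 7 other pathway lists; filled points passed an adjusted p under 0.1. The 10 genes reach 0.81, the Ras inhibitor genes 0.55 and the transcription factor genes 3.45.

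Likeness of pattern was measured by the root mean square difference of standardized log2 CPM over 16 mice. For each called gene, the median difference over the tested genes was near 1.4. The closest pairs among the 10 were Dusp6 with Spry4 (0.30) and Spred1 with Spred2 (0.44). The gene outside the 10 that was most similar was Tent5a for Spry4 (0.26), Trio for Spred2 (0.27), Paqr8 for Spred1 (0.29), Ptpn1 for Dusp6 (0.32), Gpr3 for Dusp5 (0.36), Pqlc1 for Dusp4 (0.44) and the immediate early gene Ier2 for Dusp1 (0.53). Each of these genes was picked as the smallest difference over all tested genes outside the 10, so it lies below that median by selection. All of these values are descriptions over mice that share their groups. Dusp5 and Spry2 were the pair of the 10 farthest apart (1.57).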

How the data were processed

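Dorsal hippocampal mRNA of 16 mice was sequenced as stranded single-end reads of 50 bases. The authors mapped them to mm10 with STAR 2.5.3a and Bowtie 2, kept uniquely aligned reads, counted them with HTSeq-count 0.6.1p1 in union mode on Ensembl release 90 genes, and deposited raw counts without normalization. Whether the counting used strand is not given in the sources used here.

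Identifiers were matched to GENCODE M21 (35247 of 35328). In R 4.3.3, edgeR 4.0.16 with TMM normalization, the filterByExpr filter and a mean per group was fitted to 16 libraries. Quasi-likelihood p-values were adjusted over 17830 genes by Benjamini-Hochberg, and a gene was called under 0.1, the study's threshold. CPM are relative to the TMM-scaled total. The fit was tested on simulated data. Library totals ran from 23078094 to 49949281, and the median standard error per comparison of 2 groups in the fit was 0.10 (log2). Replicates differed beyond sampling noise (chi-square per degree of freedom 5.26 to 30.4 over 24 pairs).

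The 10 genes and all lists were chosen with earlier results of these data known. Named besides the 10 were, from each list, every gene called in a learning contrast, or the 4 of smallest p if more, and the most similar gene of each called member. Alternatives were DESeq2 1.42.0 and its size factors, other count filters, a threshold of 0.05, robust empirical Bayes, the compared groups alone, thinning to 23078094 counts, and leaving out each library.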

Additional observations from a re-analysis of the deposited data

Results flagged for a closer look

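Among the 40 combinations of gene and group, 3 values stood apart from the other 3 mice of their group by Dixon's criterion for 4 values (the gap to the nearest mouse over the group's range), where chance flags about 1 in 20. Dusp4 was low in HC_Caffeine 17 at 17.97 CPM (gap over range 0.880), and so was Spred1 in the same mouse at 111 CPM (0.840). Spry2 was high in HC_water 8 at 35.3 CPM (0.861).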

How the results depend on the processing

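No paired analysis was possible because the groups share no replicate numbers. The number of the 10 genes called kept within 1.5 times of its value except for learning under water, where 5 in place of 3 were called both with every gene of at least 1 count tested (Dusp4 and Dusp5 added) and with HC_Caffeine 17 and MWM_water 24 both left out (Dusp4 and Spred2 added), a choice made after seeing the data; the cause was not tested. Leaving out 1 mouse at a time gave 2 to 4 calls under water, 3 to 5 under caffeine and 6 or 7 in the average. The average call of Dusp1 was lost at a threshold of 0.05, as was the water call of Spred1, which was also lost with the compared groups alone (adjusted p = 0.145). DESeq2 called Dusp5 under water (adjusted p = 0.0842) and Spred2 under caffeine (0.0659). Over all genes, learning under water gave 173 calls against 427 in DESeq2, 389 with both mice left out, 290 with every gene tested, 85 with the compared groups alone and 70 at 0.05, and 37 to 312 without 1 mouse (37 without MWM_water 36, 54 without 33, 98 without 38, 38 without HC_water 20, 47 without 11, 109 without MWM_Caffeine 30 and 312 without HC_Caffeine 17). Learning under caffeine gave 942 against 1561 in DESeq2, 617 with the compared groups alone and 449 at 0.05, and 382 to 1231 without 1 mouse, the 4 lowest being those without MWM_Caffeine 30 (382), 40 (512) or 22 (576) or HC_Caffeine 17 (406). The average gave 2590 against 1384 at 0.05, and 1783 to 3191 without 1 mouse. Caffeine at rest gave 33 calls without HC_water 6 and at most 1 without any other mouse. Tested with every gene of at least 1 count, caffeine gave 34 calls at rest and 8 after learning, and the difference 9, none among the 10.

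The values that changed sign were all uncalled. For caffeine against water after learning, Spry4 was -0.0012 and became 0.0017 with DESeq2, 0.0019 with its size factors, 0.0024 with at least 10 counts required, 0.0053 with every gene tested, 0.0043 with the compared groups alone and 0.048 after thinning, where Dusp1 became -0.073 and Spred1 -0.0060. With both mice left out, Dusp1 became -0.034, Dusp4 -0.0020, Dusp6 -0.069, Spry1 0.087, Spry2 -0.016, Spred1 -0.029 and Spred2 -0.031 in that comparison, Spred2 became 0.052 for caffeine at rest, Spry1 -0.056 and Spry2 0.036 for learning under water, Spry1 -0.067 in the average, and Spred1 -0.019 and Spred2 -0.083 in the difference. Spry2 became 0.0040 for learning under water with every gene tested, and Dusp14 became 0.00075 in the difference after thinning.

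Leaving out 1 mouse at a time changed further signs, with these ranges on the log2 scale. For learning under water they were -0.0026 to 0.085 (Dusp14), -0.056 to 0.12 (Spry1) and -0.050 to 0.050 (Spry2). Under caffeine they were -0.040 to 0.062 (Dusp14) and -0.080 to 0.064 (Spry1), and in the average -0.0035 to 0.054 (Dusp14) and -0.037 to 0.058 (Spry1). For caffeine at rest they were -0.11 to 0.32 (Dusp5), -0.079 to 0.052 (Spred2) and -0.033 to 0.13 (Spry1). After learning they were -0.048 to 0.092 (Dusp1), -0.0017 to 0.17 (Dusp4), -0.069 to 0.084 (Dusp6), -0.029 to 0.040 (Spred1), -0.031 to 0.060 (Spred2), -0.073 to 0.087 (Spry1), -0.015 to 0.071 (Spry2) and -0.055 to 0.053 (Spry4). In the difference they were -0.074 to 0.024 (Dusp14), -0.18 to 0.00073 (Dusp4), -0.068 to 0.36 (Dusp5), -0.029 to 0.10 (Spred2) and -0.13 to 0.038 (Spry1).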

Other observations

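In 3 groups, the same sets of genes had their lowest values in a single mouse of the group. HC_water 20, HC_Caffeine 17 and MWM_water 24 were each the lowest of their 4 mice for Dusp4, Dusp6, Spred1 and Spred2, while HC_water 11, HC_Caffeine 14 and MWM_water 38 were each the lowest for Dusp1, Dusp5 and Spry4. In MWM_Caffeine, mouse 27 was lowest for Spred1 and Spred2 and mouse 22 for Dusp1, Dusp6 and Spry4, but mouse 30 was lowest for Dusp4 and mouse 40 for Dusp5, so the grouping of the other 3 groups did not hold there. HC_water 20, HC_Caffeine 17, MWM_water 24 and MWM_Caffeine 27 also had the lowest score of their groups on the first principal component over all genes (-21.1, -29.1, -5.78 and 7.46). This pattern was noticed after the values were seen and was not tested.

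Summed over genes per kilobase of exon, the 5 phosphatase genes had 44.0 ± 2.36 and 49.0 ± 5.10 CPM in the home cage (water, then caffeine) and 59.6 ± 6.66 and 63.6 ± 1.76 after learning (SD, n = 4). The 3 Sprouty genes together had 21.02 ± 1.33, 24.05 ± 2.44, 22.5 ± 1.74 and 22.7 ± 1.54 in the same order, a sum in which Spry2 is the largest term. The 2 Spred genes had 36.2 ± 3.00, 35.0 ± 3.26, 43.1 ± 2.61 and 43.4 ± 2.04.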
